A study of Rattus norvegicus with 399 samples.

Results

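The genes described here encode interleukins, chemokines, the receptors of both, and transforming growth factor beta ligands with a receptor. Members were taken by name: every probe of the targeted panel whose gene symbol begins with Il and a digit, Ccl, Cxcl, Ccr and a digit, Cxcr or Tgfb. The rule gave 38 genes on 40 probes, of 2603 genes on 2654 probes in the table, and used no measured value. By role the members were 12 CC chemokines, 5 CXC chemokines on 6 probes, 4 chemokine receptors, 10 interleukins on 11 probes, 4 interleukin receptor chains, and 3 members of the TGF-beta family. Other genes of these families were not analysed here.

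Chemokines are small secreted proteins that direct the movement of white blood cells through G protein-coupled receptors, and CC and CXC chemokines differ in the spacing of their first cysteines. Interleukins carry signals between immune and tissue cells, with interleukin 1 acting through NF-kB and many other interleukins through JAK and STAT proteins, while TGF-beta signals through SMAD proteins and restrains immune cells. In the liver, resident macrophages (Kupffer cells), endothelium and stromal cells are known sources of several of these proteins.

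Female Sprague-Dawley rats aged 9 weeks were exposed to 1,2-dichlorobenzene (1,2-DCB) or 1,4-dichlorobenzene (1,4-DCB), isomers with the chlorines on adjacent or on opposite ring carbons, and liver, kidney, heart, lung and ovary were taken on study day 5. The 1,2-DCB groups received 1, 10, 30, 100, 250 or 500 ppm and the 1,4-DCB groups 1, 10, 50, 150, 400 or 800 ppm, with a separate set of control rats at 0 ppm for each isomer. The sources used here do not give the route of exposure. Groups held 5 exposed rats and 10 controls, apart from 9 controls for the kidneys of 1,2-DCB, 8 controls for the lungs of 1,4-DCB, 4 rats for lung at 500 ppm of 1,2-DCB, for kidney at 1 ppm of 1,4-DCB and for lung at 1, 10 and 150 ppm of 1,4-DCB, and 3 for lung at 400 ppm of 1,4-DCB. RNA was measured with TempO-Seq, in which pairs of short detector probes are joined on their target RNA and counted by sequencing. Of 399 libraries, 9 marked by the submitters for quality were set aside, and the 390 used held 1202354 to 69774071 counts. The shallowest was the ovary of control rat F6 of the 1,4-DCB set. Defining heart, kidney, liver and ovary genes were highest in the tissue of their label, whereas no lung gene of the marker list was on the panel, so the lung label could not be checked that way. Each library is a piece of whole tissue, so fewer cells of a type and less RNA per cell cannot be told apart.

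Levels are counts per 1000000 (CPM) of library totals scaled by the trimmed mean of M-values (TMM) within each compound and tissue, and levels of different probes are not compared with each other. A member is called risen or fallen where edgeR's quasi-likelihood test gave a Benjamini-Hochberg adjusted p below 0.05 over all probes tested in that tissue. Comparisons within a compound and tissue share their control rats. Counts at an unadjusted p below 0.05 were taken for members only, so shares of all probes, which are at the adjusted p, are no background for them. The summed level of a gene list is over all its probes on the panel, tested or not. Errors of levels are SDs. Errors of log2 fold changes are standard errors taken as the log2 fold change, without its sign, divided by the square root of the test's F statistic.

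The promoters of 3 members on which the results turn are shown because Cxcl12 was called in liver, lung, kidney and ovary, Ccl7 rose in heart and lung, and Ccl24 fell in the livers of both compounds. Each is the 250 bases before the RefSeq gene start in the rat build GRCr8, written 5′ to 3′ on the gene's strand. Cxcl12 lies at chr4:152060531-152060780, Ccl7 at chr10:67513845-67514094 and Ccl24 at chr12:26737173-26737422, all on the plus strand. Capitals mark a match to the AP-1-like motif TGANTCA.
Cxcl12: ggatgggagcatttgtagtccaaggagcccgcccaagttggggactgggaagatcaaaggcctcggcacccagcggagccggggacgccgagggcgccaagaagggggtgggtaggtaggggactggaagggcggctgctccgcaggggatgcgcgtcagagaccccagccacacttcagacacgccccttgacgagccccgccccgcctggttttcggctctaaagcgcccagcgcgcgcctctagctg
Ccl7: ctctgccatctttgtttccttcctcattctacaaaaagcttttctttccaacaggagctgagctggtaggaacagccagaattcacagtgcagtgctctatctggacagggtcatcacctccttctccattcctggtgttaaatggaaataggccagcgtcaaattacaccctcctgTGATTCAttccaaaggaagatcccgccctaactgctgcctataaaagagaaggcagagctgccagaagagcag
Ccl24: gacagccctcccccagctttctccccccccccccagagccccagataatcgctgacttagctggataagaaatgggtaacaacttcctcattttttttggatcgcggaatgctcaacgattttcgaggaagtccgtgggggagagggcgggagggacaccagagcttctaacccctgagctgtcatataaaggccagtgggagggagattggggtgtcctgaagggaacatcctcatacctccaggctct
Promoter sequences were available here for 31 of the 38 member genes. The AP-1-like motif, which reads the same on both strands, occurred in 4 of them (Il11, Il1a, Ccl7 and Cxcl10) and in 1747 of 27457 promoters of all genes (6.36%). The NF-kB-like motif GGGANTTCC, searched on both strands, occurred in 1 (Cxcl2) and in 414 of all promoters (1.51%). The form of it with any 1 base inserted before its last 2 letters occurred in 3 (Cxcl1, Cxcl2 and Il6) and in 273 of all promoters (0.994%). Neither motif, in either form, occurred in these windows of Cxcl12 and Ccl24.

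In control rats, most members had their highest median in lung or ovary. By the median over control rats of both compounds, 23 probes were highest in lung, 12 in ovary, 3 in kidney and 1 in heart. Il20 was above 0 in 8 of 390 libraries and was tested nowhere. For 6 of the lung probes (Ccl3, Ccl5, Ccl6, Ccl11, Ccr7 and Tgfbr2), every control lung was above every control library of the other tissues, and none of the 12 ovary probes stood apart in that way. Totals were scaled within each tissue, so differences of composition between tissues were not adjusted.

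Ccl11 (eotaxin, which draws eosinophils) ran from 288 to 734 CPM in control lungs with a median of 502.5 CPM, from 24.9 to 87.6 CPM in control ovaries with a median of 52.8 CPM, and from 0 to 3.43 CPM in control hearts. Il1b, a main activator of inflammation, had medians of 59.3 CPM in lung, 16.2 CPM in ovary, 7.79 CPM in kidney, 5.51 CPM in liver and 4.23 CPM in heart, with each neighbour in that order overlapping the next. The kidney was highest for both Cxcl12 probes. Cxcl12, the CXCR4 ligand made by stromal and endothelial cells, had a median of 477 CPM on probe Cxcl12_32815 in kidney, 393 CPM in ovary, 277 CPM in lung, 212 CPM in heart and 145.3 CPM in liver, and again each neighbour overlapped the next. The liver was low for many members: Ccl7, Ccl21, Cxcr4 and Ccl2 had liver medians of 0.0636, 0.127, 0.0245 and 0.144 CPM, Il6 was at 0 in 19 of 20 control livers and Cxcl1 in 18 of 20.

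**Figure D1:**
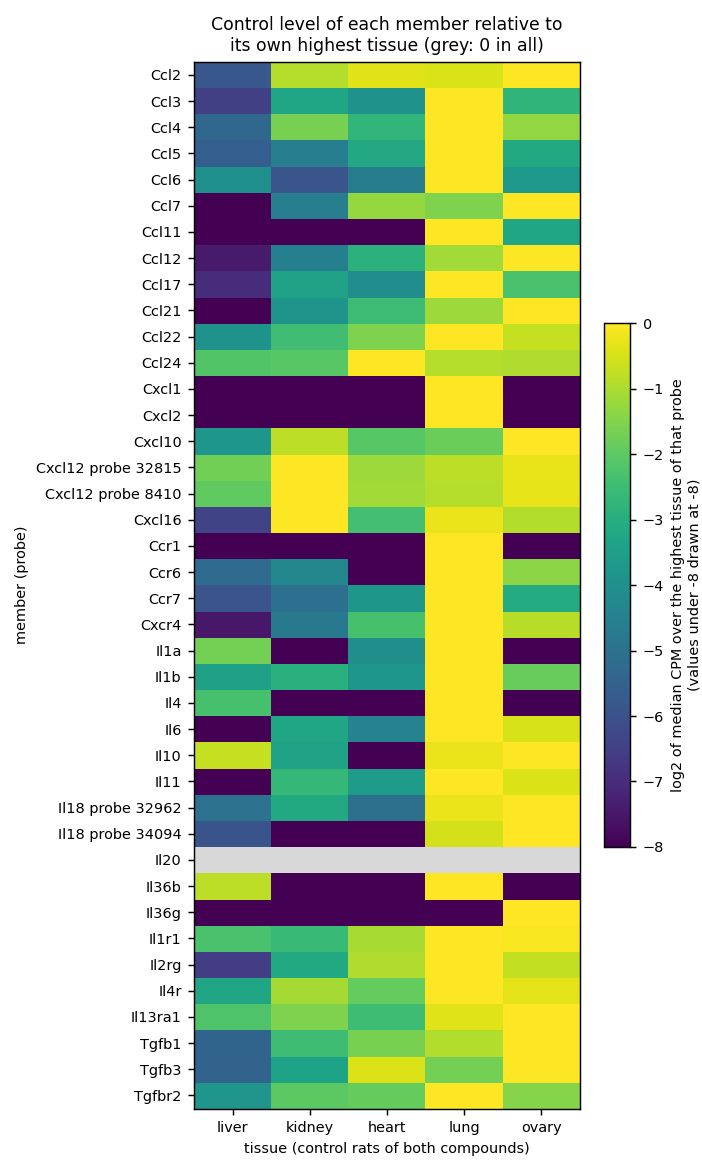
Median CPM of each probe in control rats of 5 tissues, as log2 relative to the tissue where that probe was highest (yellow, at 0), with members down the page grouped by role. Most probes are at 0 in lung or ovary, the Cxcl12 and Cxcl16 probes are at 0 in kidney, and Ccl24 is at 0 in heart; colours compare tissues within a row only.

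At the top concentrations, 39 of the 40 probes were tested in at least 1 tissue and 21 in all 10 combinations of compound and tissue, and the tests of members gave 42 calls on 24 probes of 23 genes. Of these tests 10.9% were falls (33) and 2.97% were rises (9), while over the same comparisons 7.87% of all 22198 probe tests were falls and 8.25% were rises. Interleukin receptor chains gave 8 falls and no rise in 40 tests, TGF-beta members 5 falls and no rise in 30, and interleukins 5 falls and 1 rise in 53. CC chemokines gave 8 falls and 5 rises (7.34% and 4.59% of their tests), CXC chemokines 6 falls and 3 rises in 46 tests, and chemokine receptors 1 fall in 25. Of the CXC calls, 8 were of Cxcl12 alone, counted over both of its probes, and 1 was of Cxcl16. The liver held most of the falls and a single rise.

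**Figure D2:**
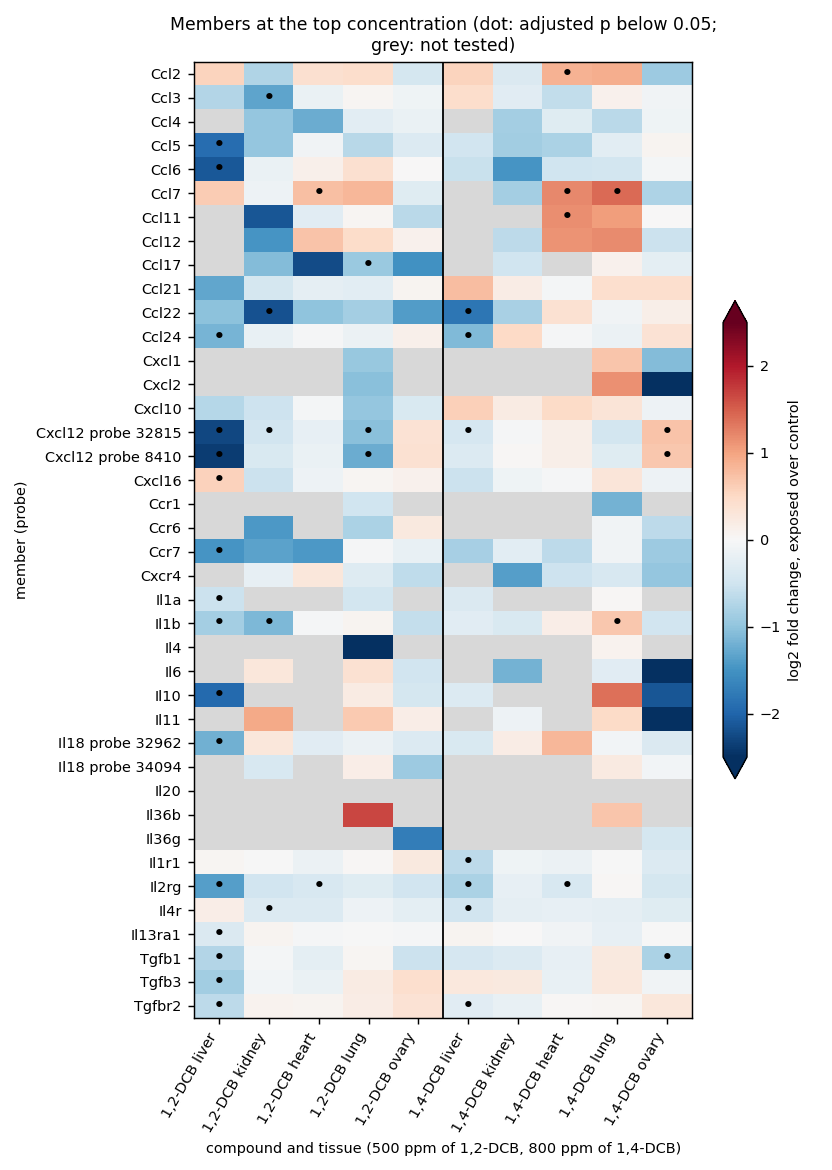
Log2 fold change of each member at the top concentration over controls (500 ppm of 1,2-DCB, left columns, and 800 ppm of 1,4-DCB, right columns), with blue for lower and red for higher in exposed rats, dots for adjusted p below 0.05 and grey for probes not tested. The 1,2-DCB liver column is mostly blue, with 15 falls and 1 rise, while Ccl7 is red in heart for both compounds and in lung for 1,4-DCB; with library totals in place of TMM, Il13ra1 in 1,2-DCB liver turns from blue to 0.04.

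In livers of rats given 500 ppm of 1,2-DCB, most measured members were lower than in controls, among them Cxcl12 and the chemokines Ccl6, Ccl5 and Ccl24, with the largest folds for Cxcl12 and Ccl6. Of 24 probes tested, 15 fell and 1 rose, while 67.8% of all probes tested in that tissue were called, 32.7% as falls and 35% as rises. The share of members called, 66.7%, was near that background, and their median log2 fold change was -0.86, against 0.03 over all probes. With library totals in place of TMM the median of all probes was 0.40 higher on the log2 scale and 12 members were called, 9 as falls and 3 as rises, while the share of rises among all calls was 71.9% against 51.7% with TMM.

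Cxcl12 fell on both of its probes. Probe Cxcl12_32815 read 40.5, 35.4, 26.4, 18.5 and 32.4 CPM in exposed rats F601 to F605, against a lowest of 126.9, a median of 144.5 and a highest of 184.1 CPM in 10 controls, a log2 fold change of -2.27 ± 0.14 (edgeR quasi-likelihood adjusted p = 2.7e-17). Probe Cxcl12_8410 read 1.68, 2.28, 1.29, 1.21 and 1.46 CPM in exposed livers, against 5.57, 7.84 and 11.7 CPM as the lowest, median and highest control, a change of -2.37 ± 0.20 (adjusted p = 2.02e-13). No exposed liver reached the lowest control on either probe.

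Ccl6, a chemokine of macrophages, was at 0.276, 0.265, 0.247, 0.205 and 0.616 CPM in exposed livers, against 0.724, 1.31 and 2.01 CPM as the lowest, median and highest control (log2 -2.12 ± 0.26, edgeR adjusted p = 3.36e-09). Ccl5 (RANTES, a T cell and monocyte attractant) was at 0.303, 0.209, 0.399, 0.290 and 0.280 CPM in exposed livers, against 0.642, 1.12 and 1.77 CPM in controls (-1.90 ± 0.32, adjusted p = 1.68e-06). Ccl24 (eotaxin-2, an eosinophil attractant made by macrophages) was at 1.52, 1.90, 1.69, 1.86 and 1.23 CPM in exposed livers, against 2.71, 3.68 and 4.78 CPM in controls (-1.16 ± 0.18, adjusted p = 2.94e-07). For all 3 the exposed and control livers did not overlap, at raw counts of 10 to 22 for Ccl6 and 10 to 24 for Ccl5 per exposed library. Ccr7, the receptor that guides dendritic and T cells to lymph nodes, fell by 1.48 ± 0.59 on the log2 scale (adjusted p = 0.0264) at raw counts of 1 to 10 per exposed library, and lost its call without F601, F602, F605 or control F3 (adjusted p 0.0507 to 0.0790) and with library totals (adjusted p = 0.114).

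Cxcl16, a membrane-bound chemokine that attracts CXCR6-bearing T cells, was the member that rose. It read 1.27, 1.65, 1.69, 1.32 and 1.32 CPM in exposed livers, against 0.608, 0.985 and 1.71 CPM as the lowest, median and highest control (0.57 ± 0.23, edgeR adjusted p = 0.0282). The groups overlapped through control F6 alone, at 1.71 CPM, with the other control livers at 0.608 to 1.10 CPM. The call was lost without F602, F603 or control F1 or F4 (adjusted p up to 0.0663). Ccl2, Ccl7, Ccl22 and Cxcl10 were tested and not called. Ccl2 (the main monocyte attractant) spanned 0.114 to 0.560 CPM in exposed and 0.0691 to 0.404 CPM in control livers, and Cxcl10 (an interferon-induced T cell attractant) 0.0569 to 0.827 CPM in exposed and 0.337 to 1.48 CPM in control livers.

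Of the interleukins, Il18, Il1b, Il1a and Il10 fell in the same livers. Il18, an interferon-gamma inducer, was at 1.08, 0.512, 0.703, 0.555 and 0.504 CPM in exposed livers on probe Il18_32962, against 0.975, 1.59 and 1.96 CPM as the lowest, median and highest control (-1.20 ± 0.19, edgeR adjusted p = 8.38e-07). All but rat F601 were below every control. Il1b was at 3.34, 2.28, 3.001, 3.17 and 3.02 CPM in exposed livers, all below the control range of 4.33 to 6.94 CPM with a median of 5.01 CPM (-0.85 ± 0.23, adjusted p = 0.00133). Il1a changed by -0.55 ± 0.19 (adjusted p = 0.0122). With library totals Il1b gave -0.44 (adjusted p = 0.0916) and Il1a -0.14 (adjusted p = 0.568), and neither was called. Il10, an anti-inflammatory interleukin, was at 0.0551, 0.114, 0.0380, 0.133 and 0.252 CPM in exposed livers, against 0.166, 0.473 and 0.876 CPM in controls (-1.95 ± 0.42, adjusted p = 9.51e-05), on raw counts of 2 to 11 per exposed library.

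Of 4 interleukin receptor chains, Il2rg and Il13ra1 fell. Il2rg, the gamma chain shared by the receptors of several interleukins, was at 0.386, 0.0948, 0.418, 0.326 and 0.112 CPM in exposed livers, against a lowest of 0.302, a median of 0.710 and a highest of 1.01 CPM in controls (-1.38 ± 0.31, edgeR adjusted p = 0.000196). Il13ra1, a receptor chain for Il4 and Il13, was at 102.5, 85.1, 112.1, 101.9 and 84.2 CPM in exposed livers, against 110.05, 125.8 and 142.5 CPM in controls (-0.37 ± 0.08, adjusted p = 8.33e-05). With library totals Il13ra1 gave 0.04 (adjusted p = 0.709). Il1r1, the signalling receptor of interleukin 1, was not called and spanned 17.2 to 21.9 CPM in exposed and 11.4 to 25.02 CPM in control livers. Il4r was not called either, at 11.7 to 23.9 CPM in exposed and 12.1 to 17.9 CPM in control livers.

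All 3 TGF-beta members fell in the same livers. Tgfbr2, the ligand-binding receptor, was at 6.18, 8.29, 6.42, 7.84 and 8.45 CPM in exposed livers, against 9.53, 11.97 and 13.5 CPM as the lowest, median and highest control (-0.66 ± 0.09, edgeR adjusted p = 9.68e-08), without overlap. The ligands Tgfb1 (-0.73 ± 0.31, adjusted p = 0.0335) and Tgfb3 (-0.87 ± 0.31, adjusted p = 0.0138) were called less firmly. Tgfb1 was not called without F601, F605 or control F7 or F8 (adjusted p 0.0528 to 0.121) or with library totals (adjusted p = 0.358). Tgfb3 was not called without F602 (adjusted p = 0.0526) or with library totals (adjusted p = 0.213).

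Other genes of these pathways moved in both directions in the same livers, where 35% of all probes rose and 32.7% fell. Of 14 receptor signalling and NF-kB probes tested, 3 rose, Nfkbib (0.89 ± 0.10), Tnip1 (0.53 ± 0.10) and Rela (0.41 ± 0.10), while 2 fell, Nfkbia (-1.23 ± 0.28), which encodes the NF-kB inhibitor that NF-kB itself induces, and Tlr2 (-1.31 ± 0.42). Of 11 JAK-STAT and SOCS probes, 1 rose (Jak2, 0.32 ± 0.10) and 5 fell, among them Socs2 (-2.12 ± 0.34), Stat5b (-0.87 ± 0.15) and Stat3 (-0.50 ± 0.11). Of 9 SMAD and TGF-beta target probes, Bambi (1.51 ± 0.17), a decoy receptor for TGF-beta, and Tgif1 (0.84 ± 0.21) rose and none fell. Of 8 probes for TNF family members and colony stimulating factors, Mif (0.81 ± 0.13) and Tnfrsf1a (0.74 ± 0.17) rose and Csf1r (-0.68 ± 0.19) fell, and of 7 adhesion molecule probes 3 rose and 4 fell. The medians of the 5 lists, in that order, were 0.01, -0.33, -0.10, 0.10 and -0.76 on the log2 scale, beside 0.03 over all probes (edgeR quasi-likelihood calls throughout).

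Among markers of white blood cells and stroma, the lists differed in how many fell in the same livers, where 32.7% of all probes fell. All 10 macrophage and monocyte probes tested fell, including Cd68 (-1.02 ± 0.13), C1qc (-1.01 ± 0.10) and Lyz2 (-1.09 ± 0.18), with a list median of -1.03. The summed level of that list was 51.5 to 69.8 CPM in exposed and 95.5 to 142.1 CPM in control livers. Of 3 T and NK cell probes 2 fell, both B cell probes fell, 2 of 3 neutrophil probes fell, and 2 of 4 mast cell and eosinophil probes fell. Of 4 endothelial probes 2 fell, and of 4 fibroblast probes 3 fell, Fn1, Col1a2 and Col3a1. Whether Fn1 marks fibroblasts in liver was not checked, so its fall is not read as one of stroma. The whole fibroblast list, Fn1 included, summed to 70.04 to 120.4 CPM in exposed and 175 to 281 CPM in control livers. Of 9 liver markers tested, 7 fell and Apoa1 (1.90 ± 0.16) rose. The part of these cells in the changes of the members was not tested.

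Calls in the 1,2-DCB liver series were made at its upper end. At 250 ppm, 3 of 24 probes fell, while 24.8% of all probes tested were called (13.5% as rises and 11.2% as falls), and at 1, 10, 30 and 100 ppm no member was called by edgeR, with 2, 0, 2 and 2 members at an unadjusted p below 0.05 and 0, 0.0495, 0 and 2.13% of all probes called. Cxcl12_32815 read 95.7, 87.2, 131.6, 93.6 and 94.1 CPM at 250 ppm in rats F501 to F505, against 126.9 to 184.1 CPM in controls (-0.56 ± 0.13, edgeR adjusted p = 0.0008). Cxcl12_8410 gave -0.51 ± 0.17 (adjusted p = 0.0272). With library totals, which put the median of all probes 0.33 higher at that concentration, the probes gave -0.24 (adjusted p = 0.0756) and -0.19 (adjusted p = 0.406). With that scaling 2 members rose and 1 fell at 250 ppm, and rises were 94.2% of all calls, against 54.6% with TMM. The call of Cxcl12_8410 was also lost without F501, F504, F505 or control F4 (adjusted p 0.0564 to 0.111). Without F503 or without F402 of the 100 ppm group the count of called members was 5. Ccl22, a macrophage and dendritic cell chemokine, was at 0.110, 0.0626, 0.0492, 0.0216 and 0.0741 CPM at 250 ppm, against 0.0886, 0.265 and 0.634 CPM as the lowest, median and highest control (-2.15 ± 0.60, adjusted p = 0.00661), on raw counts of 1 to 4. At 500 ppm Ccl22 gave -1.03 and was not called (adjusted p = 0.0727).

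**Figure D3:**
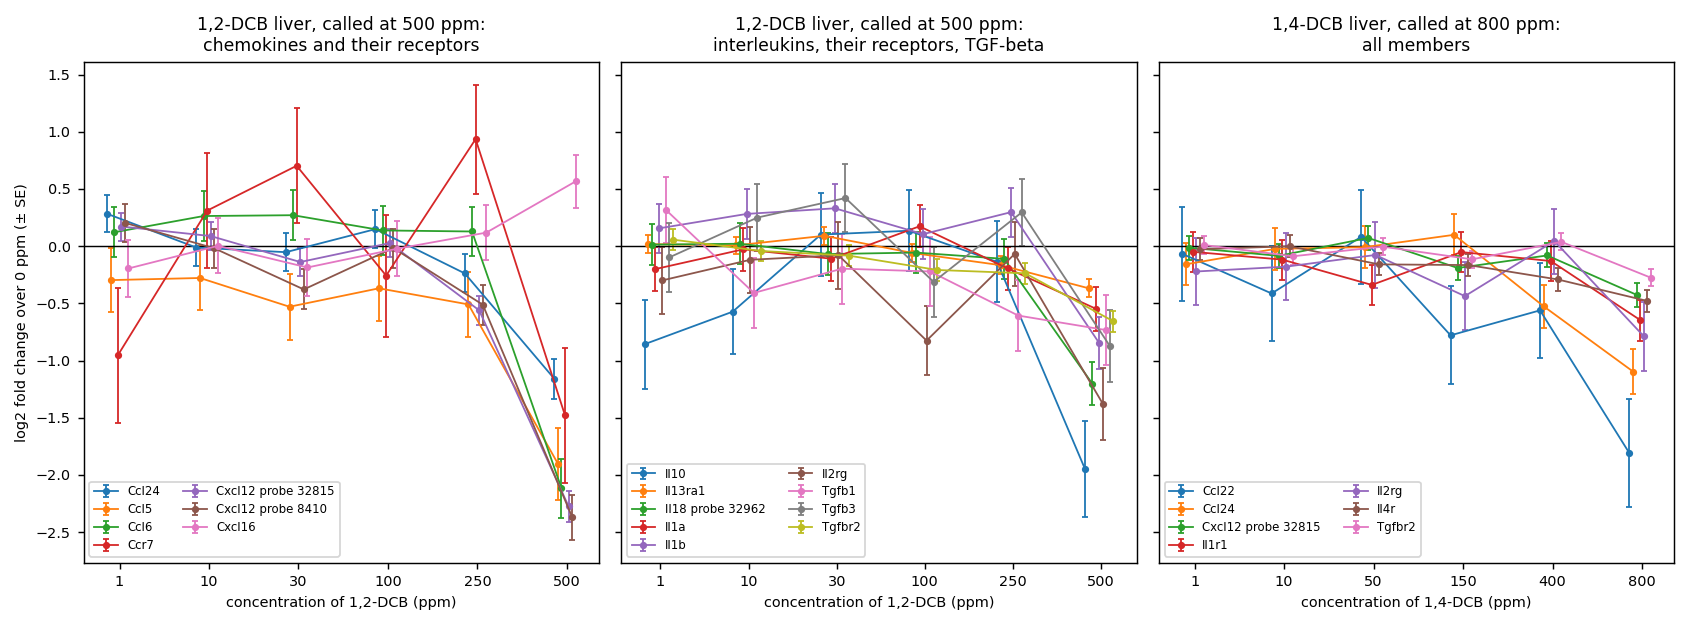
Log2 fold change over 0 ppm (± SE) in liver by concentration (equally spaced on the axis), for the members called at the top concentration of 1,2-DCB (chemokines with Ccr7 on the left, the others in the middle) or of 1,4-DCB (right). At 500 ppm of 1,2-DCB the lines lie below 0, down to -2.37 for Cxcl12_8410, except Cxcl16. Ccr7 (-0.95 at 1 ppm and 0.94 at 250 ppm) and Il10 (-0.86 at 1 ppm) were not called at those concentrations. At 800 ppm of 1,4-DCB the lines lie between -0.28 for Tgfbr2 and -1.81 for Ccl22. With library totals, Il13ra1 at 500 ppm is at 0.04.

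In livers of rats given 800 ppm of 1,4-DCB the members that changed also fell, with Ccl24, Il4r, Cxcl12 and Il1r1 among them. Of 23 probes tested 7 fell and none rose, while 34.9% of all probes tested were called (15.4% as falls and 19.5% as rises), and the members' median was -0.38 on the log2 scale against -0.00 over all probes. With library totals, 5 members fell and none rose, and the share of rises among all calls was 71.6%, against 55.8% with TMM.

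Ccl24 was at 1.88, 2.07, 1.65, 1.65 and 2.28 CPM in exposed livers, against 2.96, 4.28 and 5.18 CPM as the lowest, median and highest control (-1.10 ± 0.19, edgeR adjusted p = 1.91e-05), with no overlap. Il4r, the receptor chain shared by Il4 and Il13, was at 10.0, 10.4, 11.4, 11.5 and 12.8 CPM in exposed livers, against 11.7, 15.99 and 17.9 CPM in controls (-0.48 ± 0.10, adjusted p = 0.000131). Only rat F605 reached the control range. Cxcl12_32815 was at 121.2, 126.6, 113.5, 108.9 and 101.4 CPM in exposed livers, against 123.95, 145.3 and 220.7 CPM in controls (-0.43 ± 0.11, adjusted p = 0.00168), again with a single exposed liver inside the control range. The second probe, Cxcl12_8410, gave -0.34 ± 0.16 and was not called (adjusted p = 0.0949).

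Il1r1 was at 11.3, 15.1, 15.6, 7.13 and 19.1 CPM in exposed livers, against 15.8, 20.7 and 29.9 CPM as the lowest, median and highest control (-0.65 ± 0.18, edgeR adjusted p = 0.0043). Tgfbr2 was at 9.65, 9.55, 9.84, 9.93 and 9.93 CPM in exposed livers, below the control range of 10.2 to 13.04 CPM with a median of 11.9 CPM (-0.28 ± 0.08, adjusted p = 0.0035). With library totals Tgfbr2 gave -0.19 (adjusted p = 0.118). Of these, only Il1r1 had an exposed liver (F605) inside the control range. Ccl22 was at 0.124, 0.150, 0.188, 0.0426 and 0.0511 CPM in exposed livers, against 0.109, 0.465 and 0.568 CPM in controls (-1.81 ± 0.47, adjusted p = 0.00246), on raw counts of 3 to 10 per exposed library. Il2rg changed by -0.79 ± 0.30 (adjusted p = 0.0384) and was not called without F602, F603, F604 or control F2, F6, F7 or F9 (adjusted p 0.0520 to 0.121) or with library totals (adjusted p = 0.0636). Il1b was not called, and spanned 2.27 to 7.09 CPM in exposed and 5.03 to 6.92 CPM in control livers.

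In the pathway lists of 1,4-DCB livers, calls at edgeR's adjusted p below 0.05 stood beside 34.9% of all probes called. Of 14 NF-kB probes 2 fell, of 11 JAK-STAT probes 2 fell, Stat3 (-0.53 ± 0.16) and Jak2 (-0.23 ± 0.09), of 9 SMAD probes 1 fell (Ltbp1, -0.91 ± 0.27), and of 8 adhesion probes none was called. The medians of these lists, in that order, were -0.13, -0.23, -0.17 and -0.29 on the log2 scale, and that of the TNF family and colony stimulating factor list was -0.45. Among 8 TNF family and colony stimulating factor probes Mif rose (0.92 ± 0.08) and Ifngr1 (-0.46 ± 0.10) and Csf1r (-0.61 ± 0.15) fell. Of the 10 macrophage and monocyte probes 6 fell, with a list median of -0.40 and a summed level of 79.9 to 106.4 CPM in exposed and 106.5 to 124.9 CPM in control livers, and 2 of 5 fibroblast probes fell (115.3 to 155.3 CPM in exposed and 181 to 239 CPM in control livers). Their part in the changes of the members was not tested.

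Whether the liver changed differently from the other tissues was tested as the liver change minus the change in the other tissue, in a fit over all tissues of a compound. At 500 ppm of 1,2-DCB, 13 of 39 members differed between liver and kidney, 13 from heart, 12 from lung and 11 from ovary, while 40.1%, 38.7%, 38.9% and 41.4% of all probes did. Counting only members that passed the filter in both tissues, 10 of 22 differed from kidney, 11 of 22 from heart, 12 of 24 from lung and 11 of 23 from ovary, beside 47.6%, 49.6%, 48.5% and 51.7% of all probes that passed in both, so the share of members was near that background. All but 1 of these differences (Cxcl16 against kidney) were toward a lower value in liver. Of all probes that passed in both, 23.2%, 26.1%, 26.1% and 26.1% were called as lower in liver. Library totals, which put the median of all probes in 1,2-DCB liver 0.40 higher, were not tried in the joint fits of either compound. Cxcl12_32815 differed by -1.94 ± 0.24 from kidney (edgeR quasi-likelihood adjusted p = 6.38e-12), -2.27 ± 0.24 from heart, -1.42 ± 0.25 from lung and -2.80 ± 0.24 from ovary. Tgfbr2 differed by -0.88, -0.92, -1.04 and -1.16, Ccl6 by -2.15, -2.46, -2.71 and -2.28, and Ccl24 by -1.11, -1.33, -1.19 and -1.45, in the same order of tissues. Without rat F605 the count against heart was 8.

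At 800 ppm of 1,4-DCB, 3 of 39 members differed between liver and kidney, 7 from heart, 7 from lung and 8 from ovary, while 11.6%, 14.8%, 15.3% and 21.1% of all probes did. Of members that passed the filter in both tissues, 2 of 21 differed from kidney, 6 of 21 from heart, 7 of 23 from lung and 5 of 22 from ovary, each toward a lower value in liver, beside 13.5%, 17.9%, 18.7% and 25.3% of all probes that passed in both, and 6.53%, 9.85%, 11.4% and 15.3% as lower in liver. Ccl24 differed from all 4 tissues, by -1.71 ± 0.36 from kidney, -1.21 ± 0.36 from heart, -1.10 ± 0.36 from lung and -1.58 ± 0.36 from ovary (edgeR adjusted p between 0.000162 and 0.0241). Cxcl12_32815 differed by -0.70 ± 0.20 from heart and by -1.28 ± 0.20 from ovary (adjusted p = 5.89e-08). Leaving out a rat in all its tissues moved some of these counts: without F604 they were 1 for kidney, 3 for heart and 4 for lung, without F601 the kidney count was 1, and without F603 the ovary count was 5.

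Outside the liver, Cxcl12 fell on both probes in lung and on 1 probe in kidney with 1,2-DCB, and rose on both in ovary with 1,4-DCB. In 1,2-DCB lung at 500 ppm, 3 of 38 probes fell and none rose, while 8.85% of all probes tested were called (4.16% as rises and 4.68% as falls), and the members' median was -0.08 on the log2 scale against 0.00 over all probes. Cxcl12_32815 read 78.5, 127.6, 175.9 and 113.5 CPM in exposed lungs F602 to F605, against a lowest of 140.6, a median of 276.6 and a highest of 346 CPM in 10 control lungs (-1.04 ± 0.24, edgeR adjusted p = 0.00374). Cxcl12_8410 read 2.66, 5.76, 10.7 and 6.15 CPM in the same lungs, against 7.74, 14.98 and 24.1 CPM in controls (-1.24 ± 0.29, adjusted p = 0.00355). On both probes rat F604 alone lay inside the control range. Ccl17, a chemokine for T helper cells, was the other member that fell in these lungs, at 2.45, 3.78, 4.94 and 2.49 CPM in exposed rats against 2.90, 6.39 and 9.54 CPM in controls (-0.93 ± 0.26, adjusted p = 0.0175). Its call was lost without F602 or F605 (adjusted p 0.0964 to 0.105). Of the fibroblast probes 4 of 7 fell in these lungs (summed level 1403 to 1908 CPM in exposed and 2277 to 4202 CPM in control lungs), and their part in the Cxcl12 change was not tested.

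In 1,2-DCB kidney at 500 ppm, 5 of 31 probes fell and none rose, while 16.4% of all probes tested were called (8.72% as rises and 7.7% as falls), and the members' median was -0.44 on the log2 scale against -0.02 over all probes. Ccl3 (macrophage inflammatory protein, an attractant of monocytes and T cells) was at 1.27, 1.31, 0.820, 1.06 and 1.04 CPM in exposed kidneys, against 1.99, 2.80 and 3.75 CPM as the lowest, median and highest of 9 controls (-1.31 ± 0.20, edgeR adjusted p = 5.91e-06), with no overlap. Ccl22 was at 0.333, 0.0452, 0.516, 0.148 and 0.208 CPM in exposed kidneys, against 0.591, 0.951 and 2.08 CPM in controls (-2.18 ± 0.53, adjusted p = 0.00309), on raw counts of 1 to 17. Cxcl12_32815 was at 295, 387, 454, 275 and 268 CPM in exposed kidneys, against 339, 479 and 558 CPM in controls (-0.49 ± 0.14, adjusted p = 0.0129). The second probe, Cxcl12_8410, gave -0.38 ± 0.14 in these kidneys and was not called (adjusted p = 0.0665).

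Il1b was at 4.69, 3.85, 3.86, 1.98 and 4.09 CPM in exposed kidneys, against a lowest of 2.38, a median of 8.53 and a highest of 13.5 CPM in controls (-1.13 ± 0.35, edgeR adjusted p = 0.0215). Il4r changed by -0.35 ± 0.12 (adjusted p = 0.0469). Single libraries decided several of these kidney calls. Without F604 the count of called members was 3, Cxcl12_32815 was not called (-0.42, adjusted p = 0.0545) and Il1b was not called (-0.97, adjusted p = 0.0778), and without F605 Cxcl12_32815 gave -0.42 (adjusted p = 0.0561). Il4r was not called without F602, F603, F604, F605 or control F2, F3, F4, F5, F7, F8, F9 or F10 (adjusted p 0.0545 to 0.131). With library totals, which put the median of all probes 0.11 lower, 9 members fell and the share of rises among all calls was 22.7%, against 53.1% with TMM. Macrophage and monocyte probes fell for 5 of 10, with a summed level of 514 to 890 CPM in exposed and 873 to 1215 CPM in control kidneys, and 3 of 4 antigen presentation probes fell, among them Cd74 (-1.18 ± 0.14). Their part was not tested.

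In 1,4-DCB kidney at 800 ppm none of 28 probes was called by edgeR's quasi-likelihood test, where 5.03% of all probes were (2.37% as rises and 2.67% as falls), 2 members had an unadjusted p below 0.05 and DESeq2 called none. Without rat F602 the count was 1. Cxcl12_32815 spanned 349 to 523 CPM in exposed and 283 to 551 CPM in control kidneys.

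In 1,4-DCB ovary at 800 ppm, 2 of 35 probes rose and 1 fell, while 8.47% of all probes tested were called (4.23% as rises and 4.23% as falls), and the members' median was -0.31 on the log2 scale against 0.00 over all probes. Both rises were Cxcl12. Cxcl12_32815 read 641, 666, 646, 649 and 725 CPM in exposed ovaries, against a lowest of 324, a median of 381 and a highest of 587 CPM in controls (0.72 ± 0.17, edgeR adjusted p = 0.00585), with no overlap. Cxcl12_8410 read 35.6, 46.7, 40.9, 42.2 and 40.6 CPM in exposed ovaries, against 18.8, 23.6 and 38.2 CPM in controls (0.68 ± 0.18, adjusted p = 0.0174). It was not called without F602 (0.63, adjusted p = 0.0675). Tgfb1 was at 22.3, 10.4, 6.88, 9.07 and 11.5 CPM in exposed ovaries, against 15.1, 20.6 and 29.4 CPM in controls (-0.79 ± 0.23, adjusted p = 0.0273). The Tgfb1 call was lost without F602, F603, F604, F605 or control F5 (adjusted p 0.0577 to 0.133).

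Some interleukins of the 1,4-DCB ovaries varied widely among controls. Il11 spanned 0.313 to 0.727 CPM in exposed ovaries and 0.112 to 48.3 CPM in controls, and Il6 spanned 0 to 1.11 CPM in exposed ovaries and 0.330 to 20.7 CPM in controls, with control F5 the highest for both. Neither was called (Il11 adjusted p = 0.0546 and Il6 adjusted p = 0.0622 by edgeR's quasi-likelihood test). The count of 3 called members was 1 without F602, 5 without control F1, F4 or F10, and 6 without control F2. Of the pathway lists, Vcam1 (0.97 ± 0.22), Jak2 (0.37 ± 0.10) and Socs2 (0.44 ± 0.13) rose and Stat3 (-0.51 ± 0.15), Cd44 (-1.13 ± 0.31) and Nfkbib (-0.66 ± 0.19) fell. Among cell markers, the endothelial gene Kdr rose (0.62 ± 0.14), and none of 7 fibroblast probes was called. Over all probes tested in these ovaries 4.23% rose and 4.23% fell, and the other endothelial probes are not named here.

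In 1,2-DCB ovary at 500 ppm none of 33 probes was called by edgeR's quasi-likelihood test. Over all probes tested 2.91% were called (1.52% as rises and 1.39% as falls). At an unadjusted p below 0.05 there were 8 members, but the share of all probes at that threshold was not taken. DESeq2 called 1 member. The edgeR count was 1 without control F4 and 2 without control F5 or F8. Cxcl12_32815 was at 520, 536, 453, 576 and 533 CPM in exposed ovaries, against 278, 417 and 541 CPM as the lowest, median and highest control, and was not called (adjusted p = 0.325). The smallest adjusted p was that of Ccl22, at 0.0605, with 0.564 to 2.18 CPM in exposed and 1.56 to 6.07 CPM in control ovaries.

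**Figure D4:**
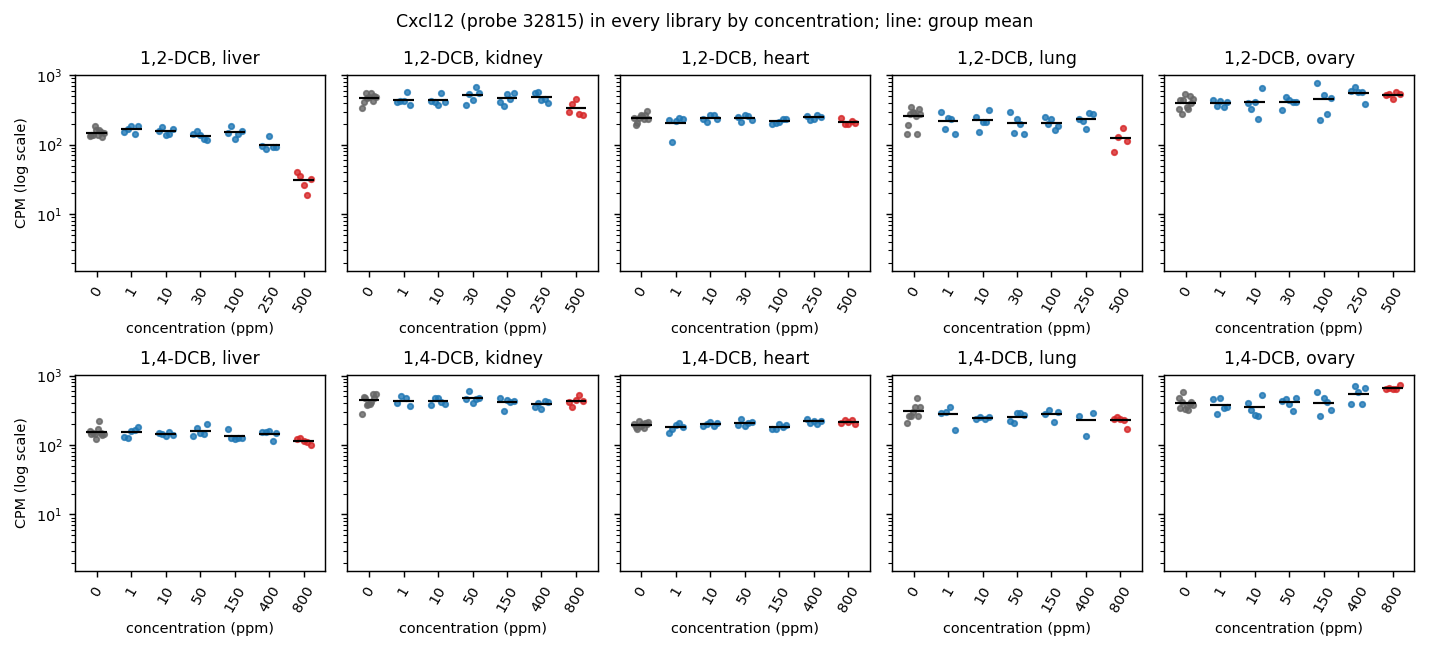
Cxcl12 on probe Cxcl12_32815 in every library, in CPM on a log scale, by concentration (equally spaced, low to high; grey controls, blue intermediate, red top concentration; line: group mean) for 1,2-DCB above and 1,4-DCB below. At the top concentration of 1,2-DCB the liver points lie at 18.5 to 40.5 CPM below controls at 126.9 to 184.1 CPM, and at the top of 1,4-DCB the ovary points lie at 641 to 725 CPM above controls at 324 to 587 CPM.

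In heart, Ccl7 rose with both compounds and its neighbours Ccl2 and Ccl11 rose with 1,4-DCB, and in lung Ccl7 rose with 1,4-DCB. Ccl7, Ccl2, Ccl11 and Ccl12 are closely related neighbouring genes, and the sources used here do not say how far each probe reads its own gene alone. At 800 ppm of 1,4-DCB, 3 of 26 heart probes rose and 1 fell, while 6.86% of all probes tested were called (3.07% as rises and 3.8% as falls), and the members' median was -0.04 on the log2 scale against -0.01 over all probes. Ccl7, a monocyte attractant, was at 14.6, 13.5, 17.3, 19.3 and 14.6 CPM in exposed hearts, against a lowest of 2.75, a median of 6.64 and a highest of 10.1 CPM in 10 controls (1.202 ± 0.247, edgeR adjusted p = 0.00143). Ccl2 was at 12.4, 13.7, 10.6, 6.81 and 11.8 CPM in exposed hearts, against 2.52, 6.25 and 7.86 CPM in controls (0.88 ± 0.22, adjusted p = 0.0106). For Ccl7 no exposed heart overlapped the controls, and for Ccl2 only rat F604 did.

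Ccl11 was at 3.06, 4.09, 2.62, 3.98 and 2.11 CPM in the hearts given 1,4-DCB, against 0, 1.44 and 2.46 CPM as the lowest, median and highest control (1.16 ± 0.35, edgeR adjusted p = 0.0352). That call was lost without F601, F602, F603, F604 or control F2 or F10 (adjusted p 0.0553 to 0.113) and with library totals (adjusted p = 0.0555). Il2rg fell, at 23.6, 23.8, 19.8, 24.1 and 28.9 CPM in exposed hearts against 26.4, 31.97 and 39.2 CPM in controls (-0.40 ± 0.11, adjusted p = 0.0144). It was not called without F603 (-0.35, adjusted p = 0.0641), which left 2 called members. With library totals 2 members rose and 1 fell, and rises were 19.8% of all calls, against 44.7% with TMM. No macrophage and monocyte probe of 10 was called in these hearts (summed level 527 to 717 CPM in exposed and 361 to 609 CPM in controls). Nfkb2 (0.91 ± 0.28), Socs2 (0.34 ± 0.09) and Spp1 (1.13 ± 0.21), osteopontin, secreted by macrophages and other cells, rose from the pathway lists, and Pecam1 fell (-0.30 ± 0.08). Over all probes tested in these hearts 3.07% rose and 3.8% fell, and the other probes of those lists are not named here. Liver markers in these hearts summed to 1744 to 2144 CPM in exposed and 1385 to 4818 CPM in control hearts, and 3 of 6 tested fell, among them Apoa1 (-2.88 ± 0.74). In control hearts of both compounds, the markers Tf and Ttr had medians of 1030 and 610 CPM and lowest values of 785 and 432 CPM. Alb had a median of 8.49 CPM and a highest value of 911.5 CPM. The part of liver markers in the chemokine results was not tested.

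At 500 ppm of 1,2-DCB, 1 of 27 heart probes rose and 1 fell, while 12% of all probes tested were called (5.16% as rises and 6.79% as falls), and the members' median was -0.17 on the log2 scale against -0.02 over all probes. Ccl7 was at 17.5, 9.85, 14.98, 15.2 and 15.8 CPM in exposed hearts, against 4.11, 8.18 and 15.5 CPM as the lowest, median and highest control (0.75 ± 0.22, edgeR adjusted p = 0.0187), with 3 of 5 exposed hearts inside the control range. It was not called without F601 (0.69, adjusted p = 0.0508) or with library totals (0.73, adjusted p = 0.0641). Il2rg was at 23.98, 19.4, 19.8, 29.4 and 30.6 CPM in exposed hearts, against 25.4, 33.5 and 38.9 CPM in controls (-0.40 ± 0.13, adjusted p = 0.0455). Its call was lost without F601, F602, F603 or control F2, F3, F4, F5, F6 or F10 (adjusted p 0.0560 to 0.178). The count of called members was 0 without F601, 1 without F602 or control F3, F4, F6 or F10, 4 by DESeq2 and 1 with library totals.

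Ccl2 was not called in the hearts given 1,2-DCB, at 5.79 to 12.5 CPM in exposed and 4.09 to 12.2 CPM in control hearts. Ccl11 was not called there either, at 1.24 to 3.31 CPM in exposed and 1.48 to 3.43 CPM in control hearts, and Ccl12 was called in the hearts of neither compound (edgeR adjusted p = 0.510 with 1,2-DCB and 0.269 with 1,4-DCB). No macrophage and monocyte probe of 10 was called there, and 4 of 7 fibroblast probes fell, with a summed level of 799 to 1094 CPM in exposed and 2167 to 3499 CPM in control hearts. Tnfaip3, an NF-kB target that limits NF-kB, rose (0.72 ± 0.17, edgeR adjusted p = 0.00219), as did Icam1 (0.71 ± 0.20, adjusted p = 0.0146).

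In 1,4-DCB lung at 800 ppm, 2 of 38 probes rose and none fell, while 5.91% of all probes tested were called (2.87% as rises and 3.04% as falls), and the members' median was 0.06 on the log2 scale against -0.02 over all probes. Ccl7 was at 14.6, 21.4, 19.6, 15.9 and 23.5 CPM in exposed lungs, against a lowest of 3.67, a median of 6.03 and a highest of 12.6 CPM in 8 controls (1.42 ± 0.28, edgeR adjusted p = 0.00197), with no overlap. Il1b was at 69.2, 73.3, 148.97, 76.3 and 101.5 CPM in exposed lungs, against 34.9, 63.05 and 70.8 CPM in controls (0.68 ± 0.17, adjusted p = 0.0165). Il1b was not called without F603 (0.46, adjusted p = 0.104) or F605 (0.65, adjusted p = 0.0516), which each left 1 called member, with library totals (0.53, adjusted p = 0.0526), or with the libraries marked for quality (adjusted p = 0.115). With library totals, which put the median of all probes 0.16 lower, 1 member rose and 2 fell, and rises were 10.6% of all calls, against 48.6% with TMM.

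The neighbours of Ccl7 were not called in these lungs. Ccl2 was at 9.36 to 15.99 CPM in exposed and 3.33 to 11.04 CPM in control lungs (adjusted p = 0.0656), Ccl12 at 3.45 to 5.82 CPM in exposed and 1.04 to 3.19 CPM in control lungs (adjusted p = 0.0931), and Ccl11 at 510 to 1514 CPM in exposed and 366 to 734 CPM in control lungs (adjusted p = 0.0982), all by edgeR's quasi-likelihood test. Among cell markers, the macrophage genes C1qc (0.58 ± 0.15) and Fcgr1a (0.55 ± 0.14) and the neutrophil genes Fcnb (1.32 ± 0.30) and S100a9 (0.99 ± 0.29) rose. Over all probes tested in these lungs 2.87% rose, and the other macrophage and neutrophil probes are not named here. The summed level of the 5 neutrophil probes was 845 to 1756 CPM in exposed and 523 to 873 CPM in control lungs, and its part in the Il1b change was not tested. None of the 5 pathway lists held a call. In 1,2-DCB lung Ccl7 was at 7.57, 18.2, 24.998 and 9.17 CPM in exposed rats, against 2.75, 7.20 and 17.3 CPM as the lowest, median and highest control, and was not called (0.82 ± 0.34, adjusted p = 0.156).

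**Figure D5:**
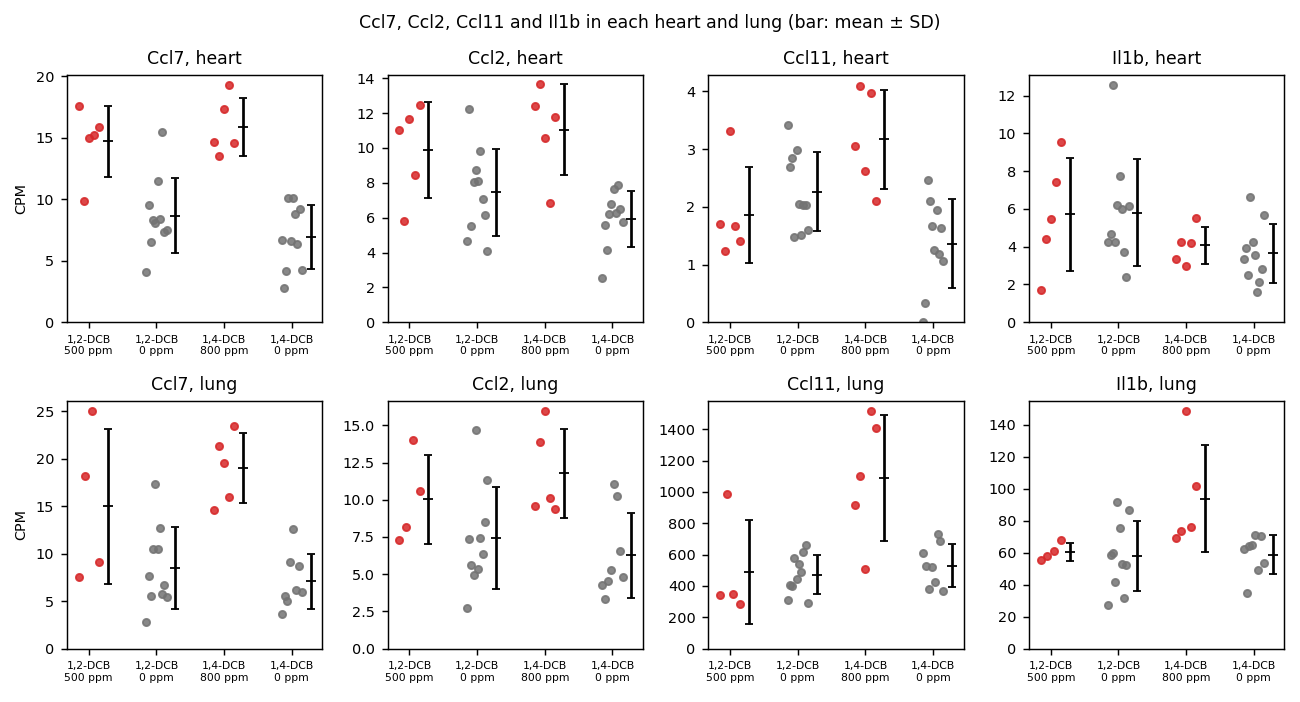
Ccl7, Ccl2, Ccl11 and Il1b in each heart (above) and lung (below), in CPM from 0 with a different axis per panel; red points are rats at the top concentration, grey points their controls, and bars the mean ± SD. Ccl7 points of 1,4-DCB lie at 13.5 to 19.3 CPM in heart and 14.6 to 23.5 CPM in lung, above all their controls; with library totals, Ccl7 in 1,2-DCB heart, Ccl11 in 1,4-DCB heart and Il1b in 1,4-DCB lung are not called.

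Of the 40 probes, 16 were called in no top comparison. Besides Il20 these were Ccl4, Ccl12, Ccl21, Cxcl1, Cxcl2, Cxcl10, Ccr1, Ccr6, Cxcr4, Il4, Il6, Il11, Il36b, Il36g and the second Il18 probe, several of which were close to 0 in most tissues and passed the count filter in few. Cxcl10 was tested in all 10 comparisons, with log2 fold changes from -0.97 in 1,2-DCB lung to 0.60 in 1,4-DCB liver and a smallest edgeR adjusted p of 0.0886. Cxcr4, the Cxcl12 receptor, was tested in 8 comparisons, and in the lung, where its level was highest, it was at 2.96 to 3.73 CPM with 1,2-DCB against 1.95 to 5.67 CPM in controls, and at 2.58 to 4.83 CPM with 1,4-DCB against 3.64 to 5.45 CPM in controls. Il6, which drives the acute phase response of the liver, was tested in 6, and in lung it was at 0.968 to 2.53 CPM with 1,2-DCB against 0.758 to 2.27 CPM in controls, and at 0.564 to 2.15 CPM with 1,4-DCB against 1.07 to 2.66 CPM in controls. Cxcl1, a neutrophil attractant, was tested in 3, with a smallest adjusted p of 0.644.

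Below the top concentrations few members were called. Over 50 such comparisons, 4 calls were made in 2 of them, the 3 in 1,2-DCB liver at 250 ppm given above and 1 in 1,2-DCB heart at 1 ppm, and 6.86% of 1515 tests had an unadjusted p below 0.05. At 400 ppm of 1,4-DCB, 6.44% of all probes were called in liver and 0.215% in kidney, and no member was. With 1,2-DCB, 0.381% of all probes were called in kidney at 10 ppm, 0.0846% in kidney at 250 ppm, 0.0434% in lung at 30 ppm and 0.0435% in ovary at 250 ppm, again with no member. None was called in the remaining comparisons outside the 1,2-DCB livers and the hearts at 1 ppm. In the hearts at 1 ppm, 1 of 27 members rose, while 5.64% of all probes tested were called (4.25% as rises and 1.39% as falls). Il1r1 was at 81.4, 141.8, 53.3, 59.7 and 44.4 CPM in exposed hearts F101 to F105, against 39.1 to 51.99 CPM with a median of 50.2 CPM in controls (0.67 ± 0.16, edgeR adjusted p = 0.0108). Rats F101 and F102 were the highest: without F102 it was 0.31 (adjusted p = 0.347) and without F101 0.63 (adjusted p = 0.140). The count of called members there was 0 without either of them, 2 without control F1, F2 or F5, F103, F201 or F303, and 3 without F104 or F105. A fit of those hearts and their controls alone called none, with an adjusted p of 0.186 for Il1r1, and library totals put the median of all probes 0.26 higher, called 3 members, all as rises, and made rises 97.8% of all calls, against 75.4% with TMM.

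The isomers were compared at the concentrations they share, 1 and 10 ppm, as the 1,2-DCB change minus the 1,4-DCB change in each tissue. No member was called in these 10 comparisons by edgeR's quasi-likelihood test, with p-values adjusted over all probes, where 0 to 1.17% of all probes were. Of 314 member tests, 19 had an unadjusted p below 0.05. The smallest was Il1r1 in heart at 1 ppm, with a difference of 0.63 ± 0.19 (adjusted p = 0.0806), and 1 member was called without F103, F104 or F105 of the 1,2-DCB hearts at 1 ppm. For Cxcl12_32815 in liver the difference was 0.19 with a 95% interval of -0.14 to 0.51 at 1 ppm and 0.17 with an interval of -0.15 to 0.49 at 10 ppm, and for Ccl7 in heart it was 0.30 (-0.39 to 0.99) and 0.22 (-0.47 to 0.91). The interval lay within 1 log2 unit of 0 for 43% of the 314, so differences of that size were not excluded for the rest. At the top, the concentrations differ (500 and 800 ppm) and the values stand side by side above: Cxcl12_32815 in liver gave -2.27 with 1,2-DCB and -0.43 with 1,4-DCB, Ccl24 -1.16 and -1.10, and Tgfbr2 -0.66 and -0.28.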

How the data were processed

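TempO-Seq probe counts of the rat S1500+ panel were measured in 399 libraries, and the 390 not marked for quality were used. The authors deposited 1 table of counts per probe and library, adjusted for attenuation of abundant probes. The step of a probe, the largest common divisor of its counts, was 1 for every member probe. That gave no sign of attenuation, but no list of attenuated probes was used. Reads were aligned with Bowtie 1.3.1, per the submitters' processing notes, and the sources used here give no genome build. Library totals ran from 1202354 to 69774071 counts, which limits precision most for members with few counts. Each compound and tissue was fitted with all 7 concentrations in edgeR 4.0.16 (R 4.3.3), with TMM factors, filterByExpr and robust quasi-likelihood tests, and p-values were adjusted by Benjamini-Hochberg over all probes tested. Differences between tissues and between compounds were tested as contrasts in joint fits. The tests within a compound and tissue were checked on counts simulated for the 1,2-DCB liver design. The joint fits, and changes as widespread as those in 1,2-DCB liver, were not simulated. Rats are separate animals, and libraries with the same F number within a compound come from the same rat, so a fit with the rat as a block was an alternative for tissue differences; the median correlation of same-rat deviations was 0.080 for 1,2-DCB and 0.073 for 1,4-DCB, against -0.002 for other rats of 1,2-DCB. Other alternatives were DESeq2 1.42.0, its size factors, other filters, pairwise fits and libraries marked for quality. Further ones were counts divided by the probe step, library totals, and each library left out. Library totals, used only in the fits within a compound and tissue, and the left-out libraries of the joint fits were chosen after seeing the data. The members and lists were chosen with earlier results of these data known. Named were all called members, a fixed set of well-known members, and called list genes with the smallest p; other genes named for small counts were chosen after their values were seen.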

Additional observations from a re-analysis of the deposited data

Results flagged for a closer look

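The exposed and control groups of each called member were checked for a library apart from the others. Of 92 checks, 5 found one by Dixon's criterion, which by chance flags about 5% of groups. Controls of a member called at more than 1 concentration were counted again, and the 5% does not allow for the choice of called members. At 250 ppm of 1,2-DCB in liver, rat F503 was at 131.6 CPM of Cxcl12_32815, above the other 4 rats of its group. At 500 ppm of 1,2-DCB in liver, rat F605 was at 0.616 CPM of Ccl6, above the rest of its group. In 1,2-DCB control livers, F6 stood above the others at 1.71 CPM of Cxcl16 and F5 apart at 0.409 CPM of Il1a. In 1,4-DCB control livers, F7 was highest at 220.7 CPM of Cxcl12_32815.

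The change in liver differed from that in another tissue, by a direct test in edgeR, for 13 of 39 members against kidney, 13 against heart, 12 against lung and 11 against ovary at 500 ppm of 1,2-DCB, where 40.1%, 38.7%, 38.9% and 41.4% of all probes did. At 800 ppm of 1,4-DCB it differed for 3, 7, 7 and 8 of 39 members in the same order of tissues, where 11.6%, 14.8%, 15.3% and 21.1% of all probes did.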

How the results depend on the processing

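Of 46 named gene values, 28 kept their direction and call under each alternative that gave them a value with no library left out, and 23 also with each library left out. The 10 CPM minimum gave 23 of the 46 a value, and the libraries marked for quality 10. Il13ra1 in 1,2-DCB liver reversed, to 0.039, with library totals. The fit of the exposed group and its controls alone ended the calls of Ccl11 in 1,4-DCB heart, Ccl17 in 1,2-DCB lung, Il1b in 1,4-DCB lung, Il2rg in 1,4-DCB liver and Tgfb1 in 1,4-DCB ovary (edgeR adjusted p 0.0614 to 0.0850). No filter ended those of Il4r in 1,2-DCB kidney and Tgfb1 in 1,2-DCB liver, and size factors, step-divided counts or no filter that of Il2rg in 1,2-DCB heart (adjusted p 0.0507 to 0.0595). With the rat as a replicate block the counts of tissue differences were 12, 12, 13 and 11 for 1,2-DCB and 4, 7, 7 and 7 for 1,4-DCB (kidney, heart, lung, ovary). For the other values that moved the cause was not tested, except that a minimum of 10 CPM leaves fewer members to test. At the top, 1,2-DCB heart (2 called) gave 4 by DESeq2 and by the pairwise fit and 1 with size factors, step-divided counts, library totals or no filter; 1,2-DCB kidney (5) gave 9 with library totals; 1,2-DCB liver (16) and 1,4-DCB liver (7) each gave 4 with the 10 CPM minimum. There 1,2-DCB ovary (0) gave 1 by DESeq2 and by the pairwise fit, 1,4-DCB lung (2) gave 1 with libraries marked for quality, and 1,4-DCB ovary (3) gave 6 by DESeq2. Below the top, 1,2-DCB heart (1) gave 2 by DESeq2 or with the 10 CPM minimum, 3 with library totals and 0 pairwise, 1,2-DCB liver (3) gave 5 with no filter, and 1,2-DCB kidney and 1,4-DCB ovary (0 each) gave 1 by DESeq2. There 1,4-DCB liver (0) gave 1 by DESeq2, its size factors, step-divided counts and both other filters, and 1,4-DCB lung (0) gave 2 with libraries marked for quality. With each library left out, top counts were 13 to 17, 3 to 7, 0 to 3, 2 to 4 and 0 to 2 for 1,2-DCB (liver, kidney, heart, lung, ovary) and 6 to 9, 0 to 1, 2 to 4, 1 to 3 and 1 to 6 for 1,4-DCB. Counts below the top were 2 to 5 in 1,2-DCB liver, 0 to 1 in its kidney, 0 to 3 in its heart and 0 to 1 in 1,4-DCB liver. Tissue differences were 11 to 14, 8 to 13, 9 to 13 and 10 to 12 for 1,2-DCB (kidney, heart, lung, ovary) and 1 to 4, 3 to 7, 4 to 8 and 5 to 9 for 1,4-DCB, and compound differences 0 to 1. Depth limits members with a few counts per library, such as Ccr7, Il10 and Ccl22 in liver.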
